A study of Sus scrofa with 2 samples.

Results

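The 39 genes described here are interferon-stimulated genes, listed by name for this work, and their messenger RNA was counted in nuclei of the olfactory mucosa of newborn pigs. Of the 39, 36 were found among the 25880 genes of each table, 1 of them (GBP1) through its Ensembl identifier, and IFIT3, OAS1 and XAF1 were not found by name. The measured members are MX1, MX2, IFIT1, IFIT2, IFIT5, OAS2, OASL, RSAD2, ISG20, BST2, IFITM3, SAMD9, CMPK2, DDX58, IFIH1, DHX58, EIF2AK2, ADAR, TRIM21, ISG15, USP18, HERC5, HERC6, PARP9, PARP14, DTX3L, IRF1, IRF7, IRF9, STAT2, CXCL10, IDO1, GBP1, PSMB9, IFI44 and IFI44L.

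Interferons are signal proteins that cells release when they sense a virus or other danger, and they switch on a shared set of genes in the cells around them. RNA sensors start the response, a complex that includes STAT2 and IRF9 carries the signal of type I and type III interferons to the nucleus, and the induced proteins block viral entry, translation and replication. In airway linings the epithelium both senses infection and answers to interferon, and a low tonic level of the same genes is present without infection.

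The study compared a wild type newborn piglet with a newborn piglet whose CFTR gene had been knocked out, the model of cystic fibrosis in pigs, with 1 library of single nuclei from each. Tissue labelled as olfactory neuroepithelium was frozen, sectioned and ground to free the nuclei, whose transcripts were counted by unique molecular identifiers (UMIs). For litter, housing and infection of the piglets: not given in the sources used here. With 1 animal per genotype nothing could be tested: the differences below compare these libraries, intervals are 95% intervals of counting error only, and genotype, animal, dissection and library cannot be told apart.

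After filtering there remained 4536 wild type nuclei with 17128569 UMIs (median 2966 per nucleus) and 5761 knockout nuclei with 15125185 UMIs (median 2093), and 8 barcodes were present in both libraries. CFTR itself stood at 88.9 CPM (1523 UMIs) in the wild type library, against 12.7 CPM (192 UMIs) in the knockout library; CPM is the UMIs of a gene as a share of all UMIs of the library or class, on the usual CPM scale, and is not corrected for gene length. Classes of nuclei were rebuilt by clustering without the members and named from marker genes, hence "-like". Markers of olfactory neurons and of their sustentacular support cells were present in both libraries, and so were those of respiratory epithelium, to very different extents: the wild type library had 52 secretory-like and 31 ciliated-like nuclei, the knockout library 444 and 447. A cluster of shallow nuclei that stayed unnamed held 34 wild type and 958 knockout nuclei, with medians of 618 and 534 UMIs.

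Over all nuclei the interferon-stimulated genes were higher in the knockout library. The 36 members together stood at 579.8 CPM (568.4 to 591.3, 9931 UMIs) in the wild type library, against 1402 CPM (1383 to 1421, 21205 UMIs) in the knockout library, a ratio of 2.42 (2.36 to 2.48). IFITM3 alone gave 11.6% of these UMIs in the wild type and 27.8% in the knockout library. Without it the ratio was 1.98 (1.92 to 2.03), and without IFITM3 and IFI44L, the pair with the most UMIs, it was 2.07 (2.01 to 2.13). IRF9, with 4 and 6 UMIs, fell under the minimum of 20 UMIs for a ratio, which left 35 members. All 35 had a ratio above 1, where 59.9% of the 16106 genes with as many UMIs did, and 17 were at least 2-fold higher, where 6.86% of all genes were.  The median log2 ratio was 0.99 for the members and 0.10 for all genes. Scaling by size factors in place of total UMIs lowers every log2 ratio by 0.11, takes the median of all genes to -0.01 and turns PSMB9 to below 0. With the respiratory nuclei left out, 9 members were at least 2-fold higher, where 4.73% of all genes were, and with equal weight for each of the 7 classes that hold at least 100 nuclei in both libraries it was also 9, where 4.13% of all genes were.

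**Figure D1:**
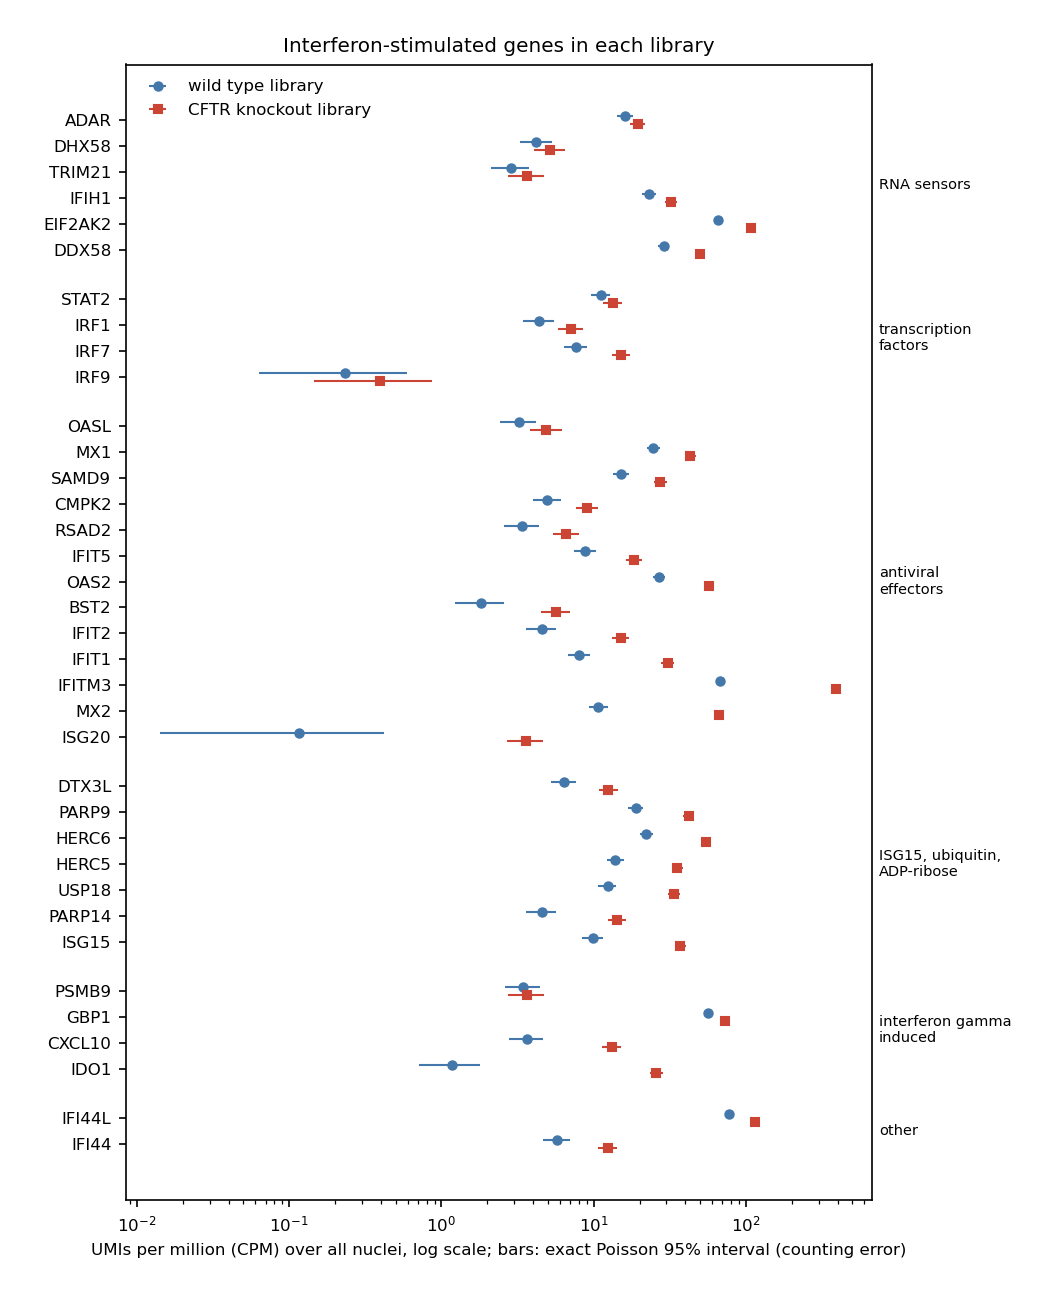
Level of each measured member over all nuclei in CPM (log axis), in the wild type library (circles) and the knockout library (squares), grouped by role; bars are exact Poisson 95% intervals. The knockout value lies to the right for all 36 genes, and the gaps are widest for ISG20, IDO1, MX2 and IFITM3; positions of different genes are not comparable, since levels are not per length.

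None of the 6 RNA sensors and regulators of RNA sensing was 2-fold higher, and their median log2 ratio was 0.42. DDX58, which encodes RIG-I, a receptor for viral RNA ends, had 492 wild type UMIs (28.7 CPM) and 754 knockout UMIs (49.9 CPM), a log2 ratio of 0.80. EIF2AK2, the kinase PKR that stops translation on double-stranded RNA, stood at 66.0 CPM and 108 CPM, a log2 ratio of 0.70. IFIH1, the long double-strand receptor MDA5, had 23.1 CPM and 32.3 CPM. The ratios of DDX58, EIF2AK2 and IFIH1 were 1.74 (1.55 to 1.95), 1.63 (1.51 to 1.76) and 1.40 (1.23 to 1.60). ADAR, which edits double-stranded RNA, had a log2 ratio of 0.28, DHX58, a regulator of the other receptors, 0.29, and TRIM21, a receptor for antibody-coated virus, 0.35. The intervals of the ratios of DHX58 (0.879 to 1.71) and TRIM21 (0.849 to 1.91) include 1.

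Of the transcription factors, IRF7, which amplifies interferon production, stood at 7.65 CPM (131 UMIs) and 15.1 CPM (229 UMIs), and IRF1, the factor best known from the interferon gamma response, at 4.38 CPM (75 UMIs) and 7.07 CPM (107 UMIs). STAT2 was nearly even, with 190 UMIs in the wild type and 202 UMIs in the knockout library and a ratio of 1.20 (0.983 to 1.48). None of the 3 was 2-fold higher, and their median log2 ratio was 0.69.

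Direct antiviral effectors made the largest group, and 8 of 13 were at least 2-fold higher, with a median log2 ratio of 1.09. IFITM3, a membrane protein that keeps viruses from fusing in endosomes, had 1154 wild type UMIs (67.4 CPM, 63.5 to 71.4) and 5894 knockout UMIs (389.7 CPM, 379.8 to 399.8), a ratio of 5.78 (5.43 to 6.17). MX2, a GTPase that acts on viral capsids, stood at 10.7 CPM (9.25 to 12.4, 184 UMIs) and 66.4 CPM (62.3 to 70.6, 1004 UMIs), a ratio of 6.18 (5.28 to 7.27). Its relative MX1 differed much less, at 24.6 CPM (421 UMIs) and 43.2 CPM (653 UMIs), a ratio of 1.76 (1.55 to 1.99). The IFIT proteins, which bind foreign RNA, were higher by log2 ratios of 1.92 for IFIT1 (138 and 462 UMIs), 1.72 for IFIT2 (78 and 227 UMIs) and 1.07 for IFIT5 (150 and 279 UMIs). OAS2, which makes the oligoadenylates that activate RNase L, had 459 and 862 UMIs, a log2 ratio of 1.09.

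ISG20, an RNA exonuclease, had 2 UMIs in the wild type and 54 UMIs in the knockout library, a ratio of 30.6 with an interval of 8.06 to 259. BST2, which tethers budding virus to the cell, had 31 and 85 UMIs. The other effectors were higher by less than 2-fold: RSAD2, which makes a chain-terminating nucleotide, with a log2 ratio of 0.97, CMPK2, a nucleotide kinase beside it on the chromosome, with 0.87, SAMD9 with 0.85 and OASL with 0.61.

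Of the 7 members that modify other proteins, with ISG15, ubiquitin or ADP-ribose, 6 were at least 2-fold higher, with a median log2 ratio of 1.35. ISG15, a ubiquitin-like protein that is attached to other proteins, stood at 9.87 CPM (169 UMIs) and 37.0 CPM (560 UMIs), a ratio of 3.75 (3.15 to 4.48). HERC5, a ligase for ISG15, stood at 13.9 CPM (238 UMIs) and 35.4 CPM (535 UMIs), and its neighbour HERC6, a related ligase, at 22.2 CPM (380 UMIs) and 54.7 CPM (827 UMIs). USP18, which removes ISG15 and restrains the interferon receptor, had 211 and 509 UMIs, a log2 ratio of 1.45. The ADP-ribosyltransferases PARP14 and PARP9 had log2 ratios of 1.64 and 1.15, and DTX3L, the partner of PARP9, 0.97. PARP9 and DTX3L overlap in the RefSeq annotation of Sscrofa11.1, so reads of one may have been counted for the other.

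The 4 members known mainly from the interferon gamma response went apart. IDO1, which breaks down tryptophan, had 20 UMIs (1.17 CPM) in the wild type and 390 UMIs (25.8 CPM) in the knockout library, a ratio of 22.1 (14.1 to 36.6). CXCL10, a chemokine for T cells, had 62 and 198 UMIs, a log2 ratio of 1.85. GBP1, a GTPase that coats intracellular pathogens, had 966 and 1097 UMIs and a log2 ratio of 0.36. PSMB9, a subunit of the immunoproteasome, had 59 and 55 UMIs and a ratio of 1.06 (0.718 to 1.55). Of the remaining members, IFI44L had 1331 UMIs (77.7 CPM) and 1723 UMIs (114 CPM), and its neighbour IFI44 98 and 187 UMIs, log2 ratios of 0.55 and 1.11.

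At baseline, in the wild type library, the members were unevenly spread over the classes. Their summed level was highest in endothelial-like nuclei, at 2032 CPM (1806 to 2278, 52 nuclei), then in secretory-like nuclei, at 1659 CPM (1479 to 1855, 52 nuclei), then in macrophage-like nuclei, at 1142 CPM (1033 to 1259, 81 nuclei). Sustentacular-like nuclei followed with 1014 CPM and glia-like nuclei, the ensheathing or Schwann cells of the olfactory nerve, with 999.6 CPM. Those values differ by less than their intervals, of 974.1 to 1055 and 905 to 1101. Ciliated-like nuclei had 888.0 CPM, microvillar-like nuclei 750.9 CPM, fibroblast-like nuclei 699.4 CPM, horizontal basal-like nuclei 659.5 CPM and Bowman gland-like nuclei 541.9 CPM. Neuronal precursor-like nuclei had 453.3 CPM. The lowest levels were those of the neurons, 317.6 CPM (299.9 to 336.1) in mature and 312.5 CPM (296.0 to 329.7) in immature neuron-like nuclei, whose intervals overlap. Few nuclei held many of the member UMIs, IFITM3 aside and after each nucleus was thinned to 1000 UMIs. The 3 of 51 secretory-like nuclei with at least 5 members gave 46.7% of them, and the 2 of 73 such macrophage-like nuclei 38.9%. Counting intervals treat UMIs as independent and are too narrow in such classes.

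Different members led in different classes of the wild type library. Among the 12 classes with at least 50 wild type nuclei, 14 of 35 members had their highest level in secretory-like nuclei, among them ISG15, OAS2, DDX58, HERC5, PARP9 and IFITM3, each on 2 to 34 UMIs. Ciliated-like nuclei, with 31 in the wild type library, are not among the 12, and their levels of IFITM3 (329.5 CPM, 59 UMIs), IDO1 (61.4 CPM, 11 UMIs) and IRF7 (55.8 CPM, 10 UMIs) were above those of the leading class, as were those of ISG20, OASL and IRF1 on 1 to 3 UMIs. Endothelial-like nuclei led for 7 members: IFI44L stood there at 506.2 CPM (396.8 to 636.5, 73 UMIs), against 194 CPM in the next class, and HERC6 at 339.8 CPM (251.4 to 449.2, 49 UMIs), against 99.7 CPM in the next. Macrophage-like nuclei led for 5, with MX2 at 148 CPM (111 to 194, 52 UMIs), close to the 124 CPM (78.6 to 186, 23 UMIs) of secretory-like nuclei. MX1 and IFIH1 were highest in sustentacular-like nuclei, at 52.2 CPM (125 UMIs) and 62.7 CPM (53.0 to 73.5, 150 UMIs). Mature neuron-like nuclei had the lowest level of 10 members and immature neuron-like nuclei that of 7.

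**Figure D2:**
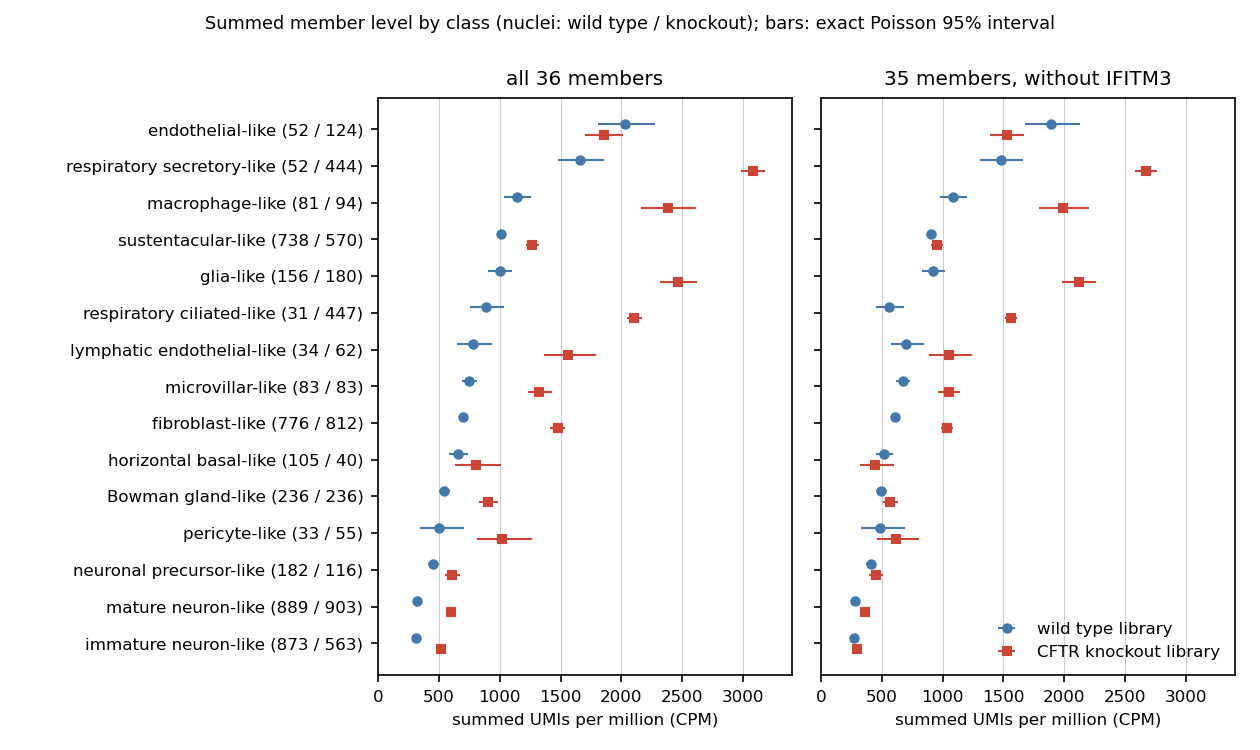
Summed level of all 36 members (left) and of the 35 without IFITM3 (right) in CPM, by class, in the wild type (circles) and knockout (squares) library; bars are exact Poisson 95% intervals and classes are ordered by their wild type level. Secretory-, macrophage-, glia- and ciliated-like nuclei stand well to the right in the knockout library in both panels, while the immature neurons, at 275 and 296 CPM, and the mature ones, at 283 and 366 CPM, differ little once IFITM3 is left out.

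In the knockout library the order was different. Secretory-like nuclei had the highest summed level, 3082 CPM (2985 to 3181, 444 nuclei). Of the named classes, glia-like nuclei with 2464 CPM (2317 to 2617, 180 nuclei) and macrophage-like nuclei with 2378 CPM (2162 to 2610, 94 nuclei) followed, which overlap. The unnamed shallow cluster of 958 nuclei lay between secretory-like and glia-like nuclei, at 2549 CPM (2421 to 2682.5), and stood at 972 CPM without IFITM3. Ciliated-like nuclei had 2106 CPM (2046 to 2168, 447 nuclei). Endothelial-like nuclei, first at baseline, had 1853 CPM (1703 to 2012, 124 nuclei), below their own wild type level though with overlapping intervals. The neurons were again lowest, at 602 CPM in mature and 516 CPM in immature neuron-like nuclei. Of the 35 members, 15 had their highest level in secretory-like nuclei and 5 in ciliated-like nuclei.

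Most of the excess of the knockout library came with the respiratory nuclei. Their nuclei were 1.15% (secretory-like) and 0.683% (ciliated-like) of the wild type library and 7.71% and 7.76% of the knockout library. The summed level of the members over all nuclei differed by 822 CPM, of which ciliated-like nuclei accounted for 36.2%, secretory-like nuclei for 28.6% and the unnamed shallow cluster for 11.8%. Fibroblast-like nuclei gave 9.08%, glia-like nuclei 5.55% and mature neuron-like nuclei 5.18%, and every other class less than these. Without IFITM3 the difference was 499.9 CPM, with 44.3% from ciliated-like, 40.8% from secretory-like, 7.94% from fibroblast-like and 7.54% from glia-like nuclei.

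The same difference can be divided into higher levels within classes and a changed mix of classes. Levels within classes made up 64.9% and the mix 35.1% of it, or 56.5% and 43.5% without IFITM3. The mix is a net value, with -5.96% from immature neuron-like and -4.27% from sustentacular-like nuclei. In the respiratory classes the mix was the larger part. Ciliated-like nuclei gave 24.6% of the difference through the mix and 11.6% through levels, and secretory-like nuclei 20.6% and 8.05%. Members differed in this split. For IFITM3 77.9% lay within classes, for MX2 57.2%, for HERC6 52.0%, for EIF2AK2 50.6%, for OAS2 50.6% and for IFI44L 35.2%. For MX2, 54.7% of the difference came with secretory-like and 33.4% with ciliated-like nuclei. How much respiratory lining each dissected piece held, and its part in the mix, was not tested.

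Among the 7 classes that reach 100 nuclei in each library, glia-like nuclei had the largest ratio. Their summed level was 999.6 CPM (408 UMIs) in 156 wild type nuclei and 2464 CPM (1051 UMIs) in 180 knockout nuclei, a ratio of 2.46 (2.20 to 2.77), and 2.29 (2.03 to 2.59) without IFITM3. Of 16 members with at least 20 UMIs there 10 were at least 2-fold higher, where 7.82% of all genes were, and the median log2 ratio was 1.38, against 0.09 for all genes in the class. Few nuclei held most of these UMIs in both libraries: after thinning to 1000 UMIs each, the 10% of nuclei with the most gave 62.6% of them in the wild type and 62.7% in the knockout nuclei, IFITM3 aside. Counting intervals treat UMIs as independent and are too narrow in such a class. HERC5 stood at 29.4 CPM (12 UMIs) and 166 CPM (71 UMIs), DDX58 at 39.2 CPM (16 UMIs) and 180.5 CPM (77 UMIs), and DTX3L had 3 and 18 UMIs. Each of these differences is larger than its counting error. GBP1 stood at 76.0 CPM (31 UMIs) and 192 CPM (82 UMIs), HERC6 at 73.5 CPM and 176 CPM, EIF2AK2 at 137 CPM and 258 CPM, and IFIH1 at 22.1 CPM and 63.3 CPM. IFI44L, already high in wild type glia-like nuclei, was nearly even at 194 CPM and 239 CPM, with an interval of the log2 ratio from -0.13 to 0.75.

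**Figure D3:**
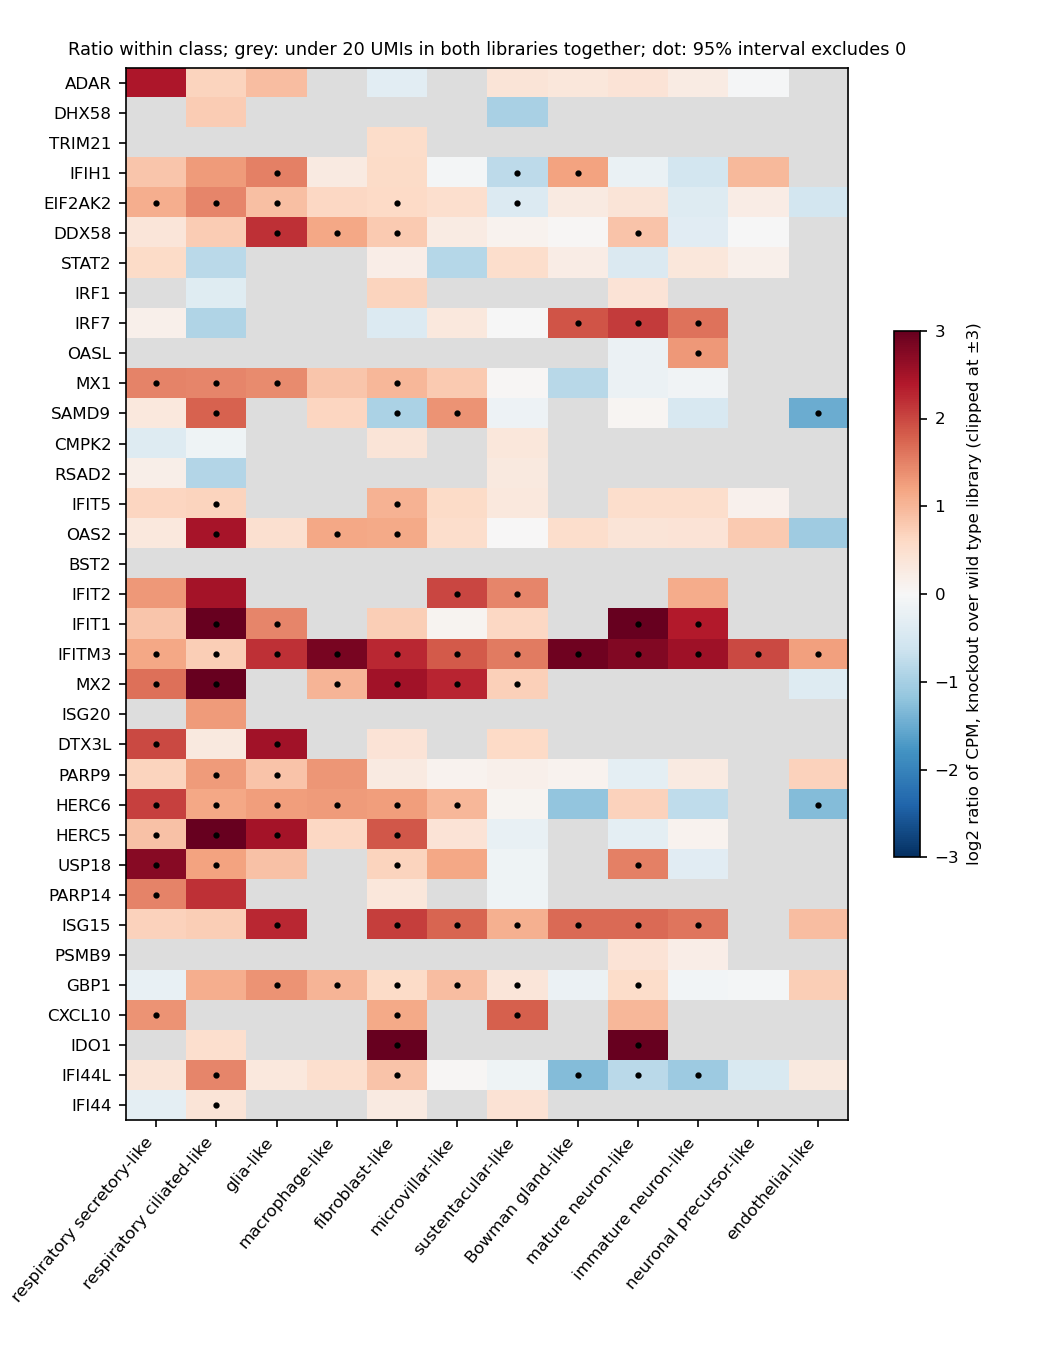
Log2 ratio of CPM, knockout over wild type library, for the 35 members (rows, grouped by role) in 12 classes (columns); colour is clipped at 3, grey marks pairs with under 20 UMIs, and a dot marks a 95% counting interval that excludes 0. IFITM3 is dotted in all 12 columns, and glia-, fibroblast-, ciliated- and secretory-like nuclei hold most of the other dots. Blue cells with dots appear for IFI44L in neurons and Bowman gland and for HERC6 and SAMD9 in endothelial-like nuclei. They also appear for SAMD9 in fibroblast-like and for IFIH1 and EIF2AK2 in sustentacular-like nuclei. Where the wild type had no UMI the ratio is computed against 3 UMIs.

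Fibroblast-like nuclei went from 699 CPM (1287 UMIs, 776 nuclei) to 1475 CPM (2266 UMIs, 812 nuclei), a ratio of 2.11 (1.97 to 2.26), and of 1.70 (1.58 to 1.84) without IFITM3. Of 28 members 9 were at least 2-fold higher, where 6.2% of all genes were, and the median log2 ratio was 0.67. The 9 were MX2, IFIT5, ISG15, OAS2, HERC5, HERC6, IFITM3, CXCL10 and IDO1. HERC6 stood at 29.9 CPM (55 UMIs) and 71.0 CPM (109 UMIs), HERC5 at 9.78 CPM (18 UMIs) and 35.8 CPM (55 UMIs), and IFI44L at 111 CPM (205 UMIs) and 201 CPM (308 UMIs). SAMD9 went the other way, with 27.7 CPM (51 UMIs) and 14.3 CPM (22 UMIs). The class is made of unlike clusters: the cluster with the higher level (879 CPM in the wild type) held 452 wild type nuclei (of 776) and 645 knockout nuclei (of 812), and a lower one (440.0 CPM) held 293 and 162. Within them the ratios without IFITM3 were 1.52 and 1.29.

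The respiratory classes have few wild type nuclei, which widens every interval. Secretory-like nuclei, named from markers of the mucus and defence protein makers of the airway lining, had a summed ratio of 1.86 (1.65 to 2.09). It was 1.81 (1.60 to 2.05) without IFITM3. TP63, a marker on the horizontal basal list, was also among the genes highest in this cluster relative to the others. Whether the class holds basal cells was not tested. MX2 stood there at 124 CPM (23 UMIs) and 387 CPM (353 to 423, 481 UMIs), HERC6 at 37.7 CPM (7 UMIs) and 157 CPM (195 UMIs), EIF2AK2 at 129 CPM (24 UMIs) and 276 CPM (344 UMIs), and MX1 at 43.1 CPM (8 UMIs) and 121 CPM (150 UMIs). OAS2, already at 162 CPM (109 to 231, 30 UMIs) in the wild type, was at 202 CPM (178 to 228, 251 UMIs), within counting error. CXCL10 had no UMI in 52 wild type nuclei and 51 UMIs in 444 knockout nuclei. With 3 UMIs taken for the wild type the ratio was 2.54, and the lower end of the counting interval was 1.99.

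Ciliated-like nuclei, of the cells that move mucus, went from 888 CPM (159 UMIs) to 2106 CPM (4642 UMIs), a ratio of 2.37 (2.02 to 2.80), and here the ratio was larger without IFITM3, at 2.79 (2.29 to 3.44). OAS2 had no UMI in 31 wild type nuclei and 205 UMIs (93.0 CPM) in the knockout library. With 3 UMIs taken for the wild type the ratio was 5.55, and the lower end of the counting interval was 4.47. MX2 had 1 UMI and 282 UMIs, a ratio of 22.9 (4.08 to 908). HERC5 had 1 and 123 UMIs and IFIT1 1 and 121 UMIs. Of the 54 ISG20 UMIs of the knockout library 30 lay in ciliated-like nuclei, and of its 390 IDO1 UMIs 192. Within this class IDO1 stood at 61.4 CPM (11 wild type UMIs) and 87.1 CPM (192 knockout UMIs), a ratio of 1.42 (0.775 to 2.89), beside its 22.1-fold ratio over all nuclei. ISG20 had 1 wild type UMI and 30 knockout UMIs there, a ratio of 2.44 (0.405 to 99.4), beside its 30.6-fold ratio over all nuclei.

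Macrophage-like nuclei had 1142 CPM (401 UMIs, 81 nuclei) and 2378 CPM (443 UMIs, 94 nuclei), a ratio of 2.08 (1.82 to 2.39), and 1.83 (1.58 to 2.12) without IFITM3. MX2 stood at 148 CPM (52 UMIs) and 301 CPM (56 UMIs), HERC6 at 99.7 CPM (35 UMIs) and 242 CPM (45 UMIs), and OAS2 at 79.7 CPM (28 UMIs) and 177 CPM (33 UMIs). Microvillar-like nuclei, named from markers of microvillar cells and of CFTR-bearing ionocytes, had 751 CPM and 1326 CPM (83 nuclei in each library), a ratio of 1.77 (1.58 to 1.97) and 1.56 (1.38 to 1.76) without IFITM3. MX2 was 22.9 CPM (18 UMIs) and 112 CPM (59 UMIs) there, a log2 ratio of 2.29.

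Sustentacular-like nuclei, the support cells of the olfactory epithelium, had a high baseline and little difference. They stood at 1014 CPM (2427 UMIs, 738 nuclei) and 1267 CPM (2088 UMIs, 570 nuclei), a ratio of 1.25 (1.18 to 1.33), which was 1.05 (0.984 to 1.12) without IFITM3. Of 28 members 4 were at least 2-fold higher, where 4.74% of all genes were: IFIT2, ISG15, IFITM3 and CXCL10. OAS2 stood at 55.6 CPM (133 UMIs) and 55.8 CPM (92 UMIs), with an interval of the ratio from 0.762 to 1.32, and MX1 at 52.2 CPM and 53.4 CPM. IFIH1, with 62.7 CPM (150 UMIs) and 36.4 CPM (60 UMIs), and EIF2AK2, with 141 CPM (338 UMIs) and 106 CPM (175 UMIs), were lower in the knockout nuclei beyond counting error. The cluster that held 577 of the wild type nuclei held 315 of the knockout nuclei, and its ratio without IFITM3 was 0.975.

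The neurons had the lowest summed levels and, IFITM3 aside, small differences in them, though single members differed more and in both directions. Mature neuron-like nuclei went from 318 CPM (1203 UMIs, 889 nuclei) to 602 CPM (1706 UMIs, 903 nuclei), a ratio of 1.89 (1.76 to 2.04), which without IFITM3 was 1.29 (1.18 to 1.41). Of 24 members 7 were at least 2-fold higher, where 5.28% of all genes were: IFIT1, ISG15, IRF7, IFITM3, USP18, CXCL10 and IDO1. IFIT1 had 2 and 34 UMIs in this class, ISG15 25 and 61, USP18 15 and 32, and IDO1 0 and 35. MX1, IFI44L, OASL, IFIH1, HERC5, STAT2 and PARP9 had ratios below 1. Different clusters hold most of this class in the libraries: 644 of the 889 wild type nuclei lay in a cluster with only 65 knockout nuclei, where the ratio without IFITM3 was 0.987, and 838 of the 903 knockout nuclei in a cluster with 245 wild type nuclei, where it was 1.28. Immature neuron-like nuclei had 1340 and 1031 UMIs, a ratio of 1.65 (1.52 to 1.79), and 1.08 (0.974 to 1.19) without IFITM3. That value covers unlike clusters, with a ratio of 1.33 in the one of 618 and 467 nuclei and of 0.842 in the one of 255 and 96. Of 22 members 6 were at least 2-fold higher, where 3.03% of all genes were. MX2 was rarely counted in the neurons, with 2 and 4 UMIs in mature and 4 and 5 UMIs in immature neuron-like nuclei. IFI44L had 186 and 79 UMIs in mature neuron-like nuclei, a log2 ratio of -0.82, and 155 and 34 UMIs in immature ones, -1.09, so it was lower in the knockout nuclei of both. GBP1 had 170 and 186 UMIs in mature and 272 and 120 UMIs in immature neuron-like nuclei, where its log2 ratios were 0.55 and -0.08.

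Bowman gland-like nuclei had 542 CPM and 905 CPM (236 nuclei each), a ratio of 1.67 (1.48 to 1.88) and 1.15 (0.997 to 1.32) without IFITM3. Of 14 members 4 were at least 2-fold higher, where 5.59% of all genes were, and IFI44L was lower, with 52 and 13 UMIs. Neuronal precursor-like nuclei had a ratio of 1.35 (1.16 to 1.56) and 1.09 (0.928 to 1.28) without IFITM3, and 1 of 10 members, IFITM3, was at least 2-fold higher, where 3.87% of all genes were.

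Endothelial-like nuclei were not higher in the knockout library. Their ratio for all members was 0.912 (0.790 to 1.05). Over the 10 members with at least 20 UMIs there the median log2 ratio was -0.04, against 0.15 for all genes in the class. Without IFITM3 their summed level was 1893 CPM in 52 wild type and 1527 CPM in 124 knockout nuclei, a ratio of 0.807 (0.693 to 0.940). HERC6 went from 339.8 CPM (49 UMIs) to 138 CPM (42 UMIs), a log2 ratio of -1.30 (-1.93 to -0.67), and SAMD9 from 83.2 CPM (12 UMIs) to 29.6 CPM (9 UMIs). IFI44L, 506 CPM (73 UMIs) in the wild type and 622 CPM (189 UMIs) in the knockout library, was highest in this class in both.

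IFITM3 was unlike the other members in how evenly it was spread. In the knockout library it stood between 159 CPM and 546 CPM in 14 named classes with at least 50 nuclei, the secretory-like one set aside. BPIFA1, a secreted protein of airway gland and goblet cells, was counted in each of those classes as well: in mature neuron-like nuclei it had 23 wild type UMIs (6.07 CPM) and 1142 knockout UMIs (403 CPM), against 1622 CPM and 2556 CPM in secretory-like nuclei. The number of IFITM3 UMIs per BPIFA1 UMI varied 2.31-fold over the 14 classes, from 0.427 to 0.986. Of the 12 members with a UMI in every one of these classes it had the narrowest range: GBP1 per BPIFA1 varied 5.84-fold, ADAR 6.71-fold, EIF2AK2 7.77-fold, HERC6 31.4-fold and IFI44L 31.5-fold. Ranges of members with few UMIs in a class include counting error. The unnamed shallow cluster of 958 knockout nuclei had the highest levels of both, 1578 CPM of IFITM3 and 2932 CPM of BPIFA1. It also had 129 CPM of ISG15, against at most 61.1 CPM in the named classes with at least 50 nuclei. IFIT1 and IDO1 stood at 72.1 and 70.4 CPM there, below the 76.4 and 87.1 CPM of their leading named classes. HBB, a red blood cell gene, was also counted in each of the 14 classes of the knockout library, from 78.0 to 902 CPM. In the unnamed shallow cluster of that library HBB stood at 1095 CPM. How much of the IFITM3, or of the other members, in neurons and other classes is RNA from outside the nucleus was not tested. The ratios of the summed level within classes are given without IFITM3 as well, which sets aside IFITM3 only. The pig has further IFITM genes, and reads shared with them could be counted for IFITM3.

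**Figure D4:**
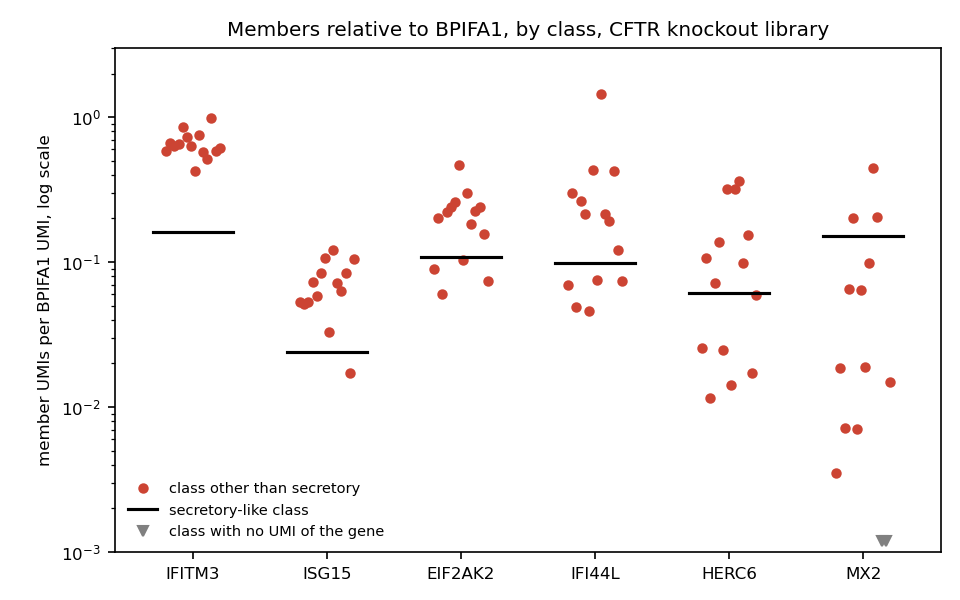
UMIs of 6 members per BPIFA1 UMI (log axis) in the knockout library: each dot is a class with at least 50 nuclei other than the secretory-like one, the black line is the secretory-like class, and triangles at the base mark classes without a UMI of the gene. The IFITM3 dots lie within 0.427 to 0.986, while those of HERC6 and MX2 spread over more than a power of 10.

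Single nuclei were compared after each was thinned to 1000 UMIs, which left out 378 wild type and 1325 knockout nuclei with fewer. At least 3 different members were then detected in 179 of 4158 wild type nuclei, 4.30% (3.71% to 4.97%), and in 558 of 4436 knockout nuclei, 12.6% (11.6% to 13.6%). In the same nuclei before thinning, with medians of 3172 and 2596.5 UMIs, the shares were 20.7% and 37.4%. Without IFITM3 the thinned shares were 3.63% (3.08% to 4.25%) and 8.72% (7.91% to 9.59%). The most members found in 1 thinned nucleus was 13, in both libraries.

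IFITM3 aside, the wild type library had at least 3 members in 5 of 51 secretory-like nuclei (9.80%) and the knockout library in 124 of 415 (29.9%), with intervals that do not overlap (33.3% and 53.3% before thinning). Ciliated-like nuclei had 1 of 31 (3.23%) and 75 of 445 (16.9%), or 35.5% and 64.5% before thinning. Macrophage-like nuclei had 5 of 73 (6.85%) and 18 of 77 (23.4%), while before thinning, at medians of 2893 and 1609 UMIs, the shares were 41.1% and 40.3%. In both of these classes the intervals of the thinned shares overlap. In glia-like nuclei the shares were 11.03% (6.44% to 17.3%) and 15.5% (10.4% to 21.8%), which overlap, and in sustentacular-like nuclei 8.46% and 9.74%. Fibroblast-like nuclei had 3.88% (2.57% to 5.59%) and 7.54% (5.63% to 9.84%). Endothelial-like nuclei had 13 of 46 (28.3%) in the wild type and 11 of 114 (9.65%) in the knockout library, or 60.9% and 39.5% before thinning, and the thinned intervals, 15.99% to 43.5% and 4.92% to 16.6%, overlap. For comparison, the neurons had 0.233% and 0.918% in mature and 0.820% and 0.919% in immature neuron-like nuclei, where they were 10.2% or less in the knockout library before thinning.

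Nuclei with many members were few and unequally placed. At least 5 members other than IFITM3 were detected in 35 of the 4158 wild type and in 128 of the 4436 knockout nuclei. The 10% of nuclei with the most member UMIs, IFITM3 aside, held 57.9% of them in the wild type and 51.8% in the knockout library. In the knockout library 59 of the 128 were secretory-like, 19 ciliated-like, 19 glia-like, 13 fibroblast-like, 10 sustentacular-like and 6 macrophage-like. None was a neuron: 0 of 871 mature neuron-like nuclei, which allows a share of up to 0.344% when 3 nuclei are taken as the limit, and 0 of 544 immature ones, up to 0.551%, as in the wild type library with 0 of 859 and 0 of 854. Glia-like nuclei of this kind were 6 of 145 (1.53% to 8.79%) and 19 of 168 (6.95% to 17.1%), and the intervals overlap.

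**Figure D5:**
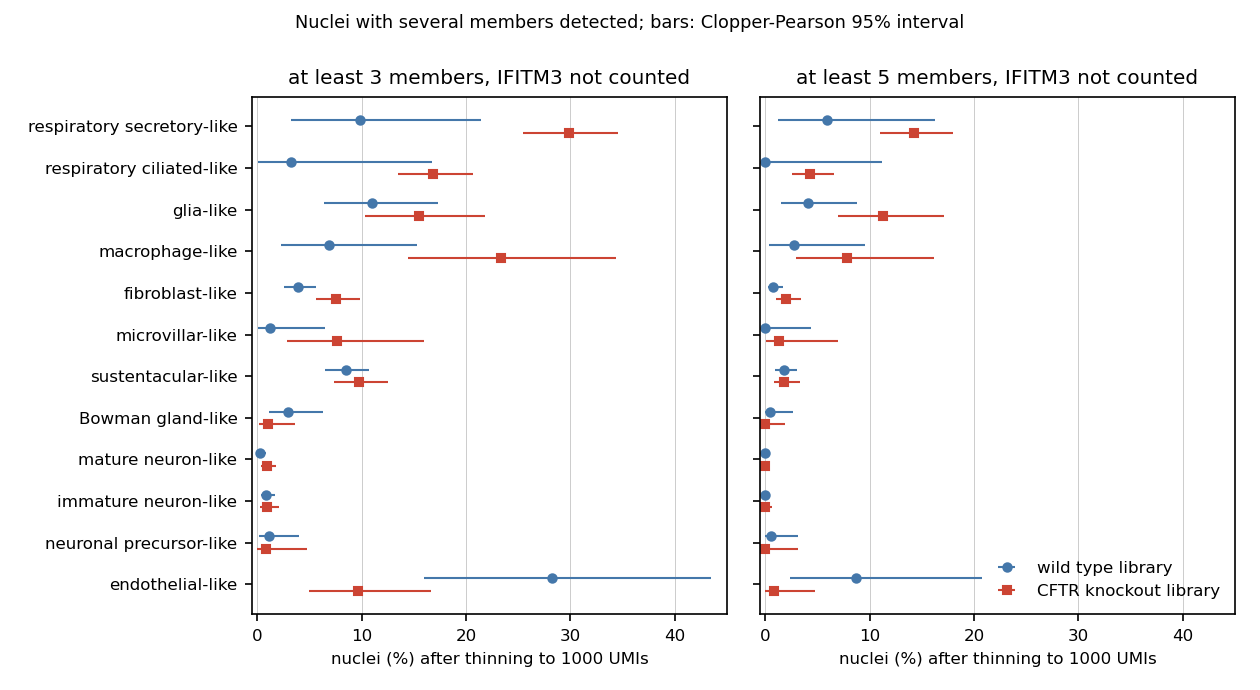
Share of nuclei with at least 3 (left) and at least 5 (right) members detected after thinning to 1000 UMIs, IFITM3 not counted, in 12 classes of the wild type (circles) and knockout (squares) library; bars are exact Clopper-Pearson 95% intervals. Secretory-like nuclei reach 29.9% and 14.2% in the knockout library, endothelial-like nuclei are higher in the wild type library, and neurons sit at or near 0 on the right in both.

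The other genes of the pathway were read from lists. Of 7 interferon genes listed, 4 were found by name and measured, and IFNL1, IFNL3, IFNW1 and the alpha interferons were not analysed here. IFNB1 had no UMI in either library, IFNE 0 and 1, IFNK 2 and 2, and IFNG 1 and 3 UMIs. Beside the 6.86% of all genes that were at least 2-fold higher, 1 of 9 receptors and their kinases was, with a list median of the log2 ratio of 0.34. It was IFNLR1, the receptor subunit for type III interferon, with 55 and 122 UMIs and a log2 ratio of 1.33, while JAK1 was at 0.09 and JAK2 at 0.05. On the list of sensors, adaptors and genes downstream of them 1 of 12 was at least 2-fold higher, the nucleic acid sensor ZBP1 with 13 and 40 UMIs. TLR3, the endosomal receptor for double-stranded RNA, was lower, with 501 and 301 UMIs and a log2 ratio of -0.56 (-0.77 to -0.35). TBK1, IRF3 and MAVS, the genes of this list with the most UMIs, were at 0.32, 0.70 and 0.49. Of the feedback inhibitors 2 of 7 were at least 2-fold higher, ISG15 and USP18, which are members, with a list median of 0.17.

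In class I antigen presentation 3 of 10 genes were at least 2-fold higher. B2M, the light chain of the class I molecule, had 1193 and 2344 UMIs, a log2 ratio of 1.15, PSMB8 had 25 and 92 UMIs and PSME2 130 and 241 UMIs. ERAP1, which trims peptides, had 89 UMIs in the wild type and 11 UMIs in the knockout library, a log2 ratio of -2.84. Of 20 further interferon-stimulated genes that are not members, 19 had ratios above 1, beside 59.9% of all genes, and 2 were at least 2-fold higher, TNFSF10 with 236 and 545 UMIs and IFI35 with 54 and 102 UMIs. Their median log2 ratio was 0.62.

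Markers of other cells the tissue could hold were summed over all nuclei, wild type first. The 11 T and NK cell markers gave 193 CPM and 127 CPM, the 7 dendritic cell markers, of which TCF4 had the most UMIs, 751 CPM and 593 CPM, and the 5 neutrophil or mast cell markers 64.0 CPM and 58.8 CPM. The 11 macrophage markers gave 165 CPM and 189.8 CPM, with F13A1 and CD14 at least 2-fold higher but 7 of the 11 below a log2 ratio of 0 and a median of -0.22, and the 10 endothelial markers 241 CPM and 376 CPM, with 4 at least 2-fold higher. Markers of secretory cells stood at 490.1 CPM and 2362 CPM with 8 of 9 at least 2-fold higher, and those of ciliated cells at 1212 CPM and 2693 CPM with 6 of 11. All 5 measured red blood cell markers were at least 2-fold higher, at 62.8 CPM and 238 CPM. Their part in the values over all nuclei was not tested beyond the values within classes above.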

How the data were processed

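Nuclei of 1 wild type and 1 CFTR knockout newborn piglet were grouped by the genotype label. The deposited values are raw UMI counts per gene and nucleus, per the labels a 10x Genomics droplet assay. The submitters' processing notes name Cell Ranger, Seurat 4.0 and R 4.0.2; for aligner, genome build and annotation: not given in the sources used here. The shallowest barcode had 500 UMIs.

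The tables held 4715 wild type barcodes with 18731495 UMIs and 6054 knockout barcodes with 16623086 UMIs. Nuclei with under 200 genes were removed (1 in all). Scrublet's own threshold called 1 doublet per library, which means that it failed; instead the top scores were removed at 0.8% per 1000 nuclei, 178 and 293 nuclei. The 2000 most variable genes, without the members, CFTR and mitochondrial transcripts, gave 30 components, 15 neighbours and Leiden clusters (resolution 1) in Python 3.11.15 with scanpy 1.11.5 and python-igraph 0.11.9. A marker counted for a cluster where, with 20 CPM added, its log2 level exceeded the other clusters' median by 1, and where it was seen in 5% of nuclei and at 50% of its highest level. A name needed 3 markers of its list, more than of any other of 23 lists, and nuclei no shallower, by median, than 0.333 of their library. Of 24 clusters 2 stayed unnamed.

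UMIs were summed and given as CPM with exact Poisson intervals, ratios with exact conditional binomial intervals, shares with Clopper-Pearson intervals (all 95%, scipy 1.17.1). A library at 0 was set to 3 UMIs, over the class, for a ratio. Ratios needed 20 UMIs. There was no test with 1 library per genotype. The difference in summed level was split into level differences at the mean class share and share differences at the mean level. The ratio calculation was tested on simulated data. Members named by class were the 12 with the most UMIs and the 4 with the largest ratios, and others that passed 2-fold or 20 UMIs in a class and were chosen after their values were seen. The members, lists and roles were chosen with earlier results of these data known. Other scalings (TMM from edgeR 4.0.16 in R 4.3.3), filters, clusterings and thinning were tried. Of the 8256 rows with only an Ensembl identifier, 1029 could be named through a gene name table. RefSeq Sscrofa11.1 was used for names and neighbours. The values of 1 gene of the pathway lists are not reported here.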

Additional observations from a re-analysis of the deposited data

Results flagged for a closer look

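Against the direction over all nuclei, 5 members were lower in the knockout library in some classes and higher in others, each beyond counting error. These were picked from every member and class with at least 20 UMIs, some on few UMIs, and the intervals are not corrected for that search. The share of all genes with such opposite classes was not computed. Whether the classes differ was not tested, since there was 1 library per genotype. IFI44L had log2 ratios of -1.30 in Bowman gland-like, -1.09 in immature neuron-like and -0.82 in mature neuron-like nuclei, and of 1.46 (0.52 to 2.60) in ciliated-like nuclei. EIF2AK2 had -3.01 in horizontal basal-like nuclei, where the knockout library had 1 UMI in 40 nuclei, and -0.41 in sustentacular-like nuclei, against 1.46 (0.56 to 2.54) in ciliated-like nuclei. HERC6 had -1.30 in endothelial-like nuclei and was higher in 6 classes, up to 2.06 (0.98 to 3.39) in secretory-like nuclei. IFIH1 had -0.78 in sustentacular-like nuclei and 1.52 (0.39 to 2.79) in glia-like nuclei. SAMD9 had -1.49 in endothelial-like and -0.95 in fibroblast-like nuclei, and had no wild type UMI against 125 knockout UMIs in ciliated-like nuclei. With 3 UMIs taken for the wild type that log2 ratio was 1.76, and the lower end of the counting interval was 1.44.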

How the results depend on the processing

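Over all nuclei no summed ratio, median or share turned direction under the alternatives run, nor did the summed ratio of the 7 classes with enough nuclei. In smaller counts directions did turn: without IFITM3 the summed ratio of horizontal basal-like nuclei was 0.863 in place of 1.22, and the thinned shares of Bowman gland-like nuclei with at least 3 members were 2.94% and 1.02% in place of 3.43% and 4.06%. Leaving out IFITM3 and leaving out the unnamed shallow clusters were chosen after the data were seen. The summed ratio over all nuclei, 2.42, was 2.24 with size factors, 2.26 with TMM, 2.55 with nuclei weighted equally, 1.81 with equal class weights, 1.93 without respiratory nuclei, 2.33 with nuclei from 1000 UMIs, 2.22 when thinned, 1.98 without IFITM3 and 2.34 without the shallow clusters. The median log2 ratio was 0.59 with equal class weights and 0.60 without respiratory nuclei, where the count past 2-fold was 9 and 9. Within classes, leaving out IFITM3 gave 1.70 in fibroblast-, 1.09 in precursor-, 1.08 in immature neuron-, 1.15 in Bowman gland-, 1.29 in mature neuron- and 1.05 in sustentacular-like nuclei. Fibroblast-like nuclei were at 1.97 with members kept in the clustering, 1.96 at resolution 0.6 and 2.36 with each library clustered on its own. Precursor-like nuclei were at 1.58 with members kept and 1.58 with doublets kept. Immature neuron-like nuclei were at 1.85 at resolution 1.5, 1.98 with each library on its own, 1.95 with doublets kept and 1.85 from 1000 UMIs. The part within classes, 64.9%, was 61.3% with members kept, 55.5% with each library on its own, 62.2% with doublets kept, 61.7% from 1000 UMIs and 56.5% without IFITM3. The ratio of shares with at least 3 members, 2.92, was 1.59 with no thinning, 3.75 for at least 5 members, 2.01 without respiratory nuclei and 2.40 without IFITM3. The other 56 recomputed values lay within the interval of the reported value or, for counts, within 1.5 times. That interval was one of counting error, except for the median log2 ratio. There it was 0.67 to 1.33, the medians of the interval ends of single members, which is not an interval of the median itself. The cause of these changes was not tested beyond what each alternative leaves out. PSMB9 turned below 0 with size factors, TMM, doublets kept, nuclei weighted equally, equal class weights and without respiratory nuclei, SAMD9 and TRIM21 with equal class weights and DHX58 when thinned. No paired analysis was possible because each genotype has 1 library. Precursor-like nuclei had no value at the other resolutions, and glia-, mature neuron- and precursor-like nuclei none with each library on its own. No class of that name held member UMIs of both libraries there. The minimum of 100 nuclei was not applied again in the other clusterings. Depth limits the rare classes: with 31 ciliated-like and 52 secretory-like wild type nuclei, ratios there rest on few wild type UMIs.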
